A study of Mus musculus with 8 samples.

Results

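Fbxo47, Ccnb3, 1700123I01Rik and 6430548M08Rik are 4 less-known genes of the meiotic germline. They were chosen by their female FPKM values, which fell strongly in Snf5 CKO germ cells, so their female fold changes describe the choice and carry no test here. All 4 were found among 24281 named loci of the female table and 23944 named loci of the male table. Each reached a mean of at least 1 FPKM (fragment counts scaled for transcript length and library size) over the libraries of both tables, as did 11642 female and 12368 male loci in all.

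The libraries were made from germ cells of E15.5 mouse gonads, sorted by fluorescence of the Oct4-EGFP transgene, in which the Oct4 promoter drives EGFP. The 8 libraries comprise 2 control and 2 Snf5 CKO libraries from each sex. Snf5 CKO embryos carried 1 floxed and 1 deleted allele of Snf5 (Snf5 fx/Δ) together with TNAP-Cre, a Cre knocked into the alkaline phosphatase gene Alpl that is active in primordial germ cells. Controls were a mixture of Snf5 fx/+, Snf5 fx/Δ and Snf5 fx/+ with TNAP-Cre embryos, and therefore included cells with a single functional allele. All embryos carried Oct4-EGFP; the labels give the strain background as C57BL/6, whereas the methods describe a mixed background. Cells of several embryos were pooled in most libraries. The paper lists 1 embryo for each male Snf5 CKO entry but several for each male control. The deletion was not complete in every cell. In such mixed or pooled cells, a lower share of expressing cells and less RNA per cell cannot be told apart.

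Smarcb1, the gene of the deleted SNF5 subunit (chr10:75896769-75921614), was at 22.9 ± 0.721 FPKM (SD, n = 2) in female controls and 3.36 ± 1.25 FPKM in female Snf5 CKO, and at 154 ± 18.4 and 9.39 ± 0.94 FPKM in males. The log2 fold changes were −2.48 in females (limma, Benjamini-Hochberg adjusted p = 0.00029) and −3.90 in males (adjusted p = 0.0022), in the direction of the labels. The tables hold no read counts, so the depth is unknown. Unnamed loci took from 5.46% to 42.1% of the summed FPKM per library, with the higher share in replicate 2 in 3 of the 4 groups. Summed over the 6 germ cell markers (Ddx4, Dazl, Pou5f1, Dnd1, Dppa3 and Mael), the level lay between 1858 and 5259 FPKM in all libraries, with 1858 and 1901 FPKM in female controls and 2925 and 3118 FPKM in female Snf5 CKO. The sum joins markers that moved in opposite directions. By the thresholds given below, Pou5f1, Dnd1 and Dppa3 (from 51.2 to 1519 FPKM) were called higher in females and Mael (from 650 to 172 FPKM) lower. In males, Dnd1 and Mael were called lower. Ddx4 and Dazl were not called in either sex. Markers of gonadal somatic cells are given below with the male results.

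Fetal germ cells in the ovary enter meiotic prophase around this stage, whereas those in the testis stop dividing and do not enter meiosis until after birth. In meiotic prophase, telomeres attach to the inner nuclear membrane and move the chromosomes while homologues pair, recombine and synapse. Progress through the later divisions depends on cyclin-dependent kinases and on ubiquitin ligases that remove their partners. CCNB3 is a B-type cyclin that promotes the onset of anaphase in the first meiotic division of oocytes. FBXO47 is an F-box protein, a class that gives SCF ubiquitin ligases their substrates, and it is needed for meiotic prophase in mouse spermatocytes. The locus listed as 1700123I01Rik is Majin in current annotations. MAJIN is an inner nuclear membrane protein that joins TERB1 and TERB2 to anchor telomeres in meiosis. 6430548M08Rik carries the synonym Kiaa0513.

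The start-site sequences are shown to give the letters around the starts of members of this group. RefSeq promoter windows on GRCm38.p6, running from 250 bases before to 50 bases after a start site, were at hand for 2 of the 4 genes, Ccnb3 and 6430548M08Rik. Capitals mark every match, on either strand, to 7 letter patterns of factors active in germ cells or in the cell cycle: CNCCTCAG (STRA8), TCCCGC (E2F), CACGTG (E-box), TGACGTCA (CRE), the NRF1 pattern, AGATAA (the pattern of GATA factors) and CCAAT (NF-Y). No match overlapped another. Both sequences are printed 5′ to 3′ on the strand of the gene, Ccnb3 from chrX:7041570-7041869 on the minus strand and 6430548M08Rik from chr8:120113902-120114201 on the plus strand.
Ccnb3: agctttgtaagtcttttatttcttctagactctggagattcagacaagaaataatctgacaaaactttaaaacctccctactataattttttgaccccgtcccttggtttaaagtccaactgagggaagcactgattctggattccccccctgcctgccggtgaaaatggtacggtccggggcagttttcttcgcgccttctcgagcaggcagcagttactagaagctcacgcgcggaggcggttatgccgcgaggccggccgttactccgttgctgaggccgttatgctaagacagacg
6430548M08Rik: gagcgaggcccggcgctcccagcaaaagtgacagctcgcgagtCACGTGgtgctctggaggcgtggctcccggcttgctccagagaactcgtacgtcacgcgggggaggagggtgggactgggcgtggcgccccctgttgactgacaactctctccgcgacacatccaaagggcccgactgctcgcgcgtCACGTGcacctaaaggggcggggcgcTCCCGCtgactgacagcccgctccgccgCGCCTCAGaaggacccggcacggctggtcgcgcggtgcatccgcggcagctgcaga
The Ccnb3 window had 50.3% G and C and 18 CpG dinucleotides, and none of the 7 patterns occurred in it. The 6430548M08Rik window had 69.7% G and C and 35 CpG dinucleotides, against medians of 52.7% and 7 over 32851 promoters. It held CNCCTCAG starting at −6 from the start site, TCCCGC at −34, and CACGTG at −207 and again at −60. Among all promoters, 7.94% held CNCCTCAG, 20% TCCCGC and 7.15% CACGTG. A further start of 6430548M08Rik at chr8:120144679-120144978 held none of the patterns and had 58.7% G and C. The letters are a description of sequence and were not tested for factor binding.

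Ccnb3 lies on the X chromosome (chrX:6979652-7042143 in the female table, build mm10), on the minus strand, with 14 exons in its longest coding transcript. In females its level was 90.2 and 53.3 FPKM in controls and 3.54 and 3.22 FPKM in Snf5 CKO. The lowest control thus stood far above both Snf5 CKO libraries, although the controls differed more, relative to their mean, than for the other 3 genes. The means were 71.8 ± 26.1 and 3.38 ± 0.227 FPKM (SD, n = 2), a 21.2-fold lower level. On the log2(FPKM + 1) scale used for all fold changes here, the difference was −4.01 (SE 0.26), rank 9 from the most negative among 11642 loci. In male germ cells, Ccnb3 was at 7.93 and 6.14 FPKM in controls and 0.479 and 0.41 FPKM in Snf5 CKO. The male groups did not overlap either, and both Snf5 CKO values were below 1 FPKM. The male mean fell from 7.03 ± 1.27 to 0.444 ± 0.0493 FPKM, to 6.32% of control, with a log2 fold change of −2.47 (SE 0.20, limma, adjusted p = 0.0023). The log2 value understates the 15.8-fold ratio of the means, since the added 1 FPKM exceeds the Snf5 CKO level.

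Fbxo47 (chr11:97850313-97884178, minus strand, 11 exons) was the most abundant of the 4 genes. Female control libraries had 235 and 184 FPKM, and female Snf5 CKO libraries had 10.8 and 13.2 FPKM. All 4 libraries kept the order of their groups, and the control mean was above that of 95.6% of tested loci, whereas the Snf5 CKO mean was above 48.9%. The mean fell from 210 ± 36.4 to 12 ± 1.74 FPKM, or 17.4-fold, with a log2 fold change of −4.01 (SE 0.20) and rank 8. In males, Fbxo47 was at 18 and 16.4 FPKM in controls and at 3.08 and 2.54 FPKM in Snf5 CKO, again without overlap. The male mean fell from 17.2 ± 1.19 to 2.81 ± 0.378 FPKM, a log2 fold change of −2.26 (SE 0.19, limma, adjusted p = 0.0023). Male Snf5 CKO kept 16.3% of the control level and female Snf5 CKO 5.74%; the difference between the sexes was not tested, because the female contrast chose the gene.

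1700123I01Rik, or Majin (chr19:6184341-6224223, plus strand, 11 exons), moved in opposite directions in females and males. Its level was 123 and 111 FPKM in female controls and 13.6 and 15.2 FPKM in female Snf5 CKO. The female control libraries were close to each other and well above both Snf5 CKO libraries. The mean fell 8.1-fold, from 117 ± 8.68 to 14.4 ± 1.14 FPKM (log2 fold change −2.93, SE 0.17, rank 105). Male controls had 0.417 and 0.602 FPKM, below the level of 1 FPKM, and male Snf5 CKO had 1.89 and 2.61 FPKM. Both male Snf5 CKO libraries were above both controls, and the mean was 4.42-fold higher at 2.25 ± 0.51 against 0.509 ± 0.131 FPKM. Majin reached the tested mean of 1 FPKM in males only through its Snf5 CKO libraries. The male log2 fold change was 1.10 (SE 0.20, limma, adjusted p = 0.011), and 1.10 with no filter on level (adjusted p = 0.016). It was 0.94 without male Snf5 CKO replicate 2 (adjusted p = 0.017), below the log2 fold change of 1 required for a call.

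6430548M08Rik (chr8:120114152-120165307, plus strand, 13 exons) fell in females and was near 1 FPKM in all male libraries. Female controls had 37.6 and 32.7 FPKM, and female Snf5 CKO had 3.06 and 3.11 FPKM. The spread within either group was small beside the gap between them, 35.1 ± 3.47 against 3.09 ± 0.0381 FPKM, an 11.4-fold ratio (log2 fold change −3.14, SE 0.18, rank 67). Male libraries had 1.34 and 1.23 FPKM in controls and 1.06 and 0.902 FPKM in Snf5 CKO. Both male Snf5 CKO values were the lower ones, but the difference was small, at 76.4% of control. It did not pass the test (log2 fold change −0.21, SE 0.16, limma, adjusted p = 0.35). An annotated protein-coding gene, Gm20388, overlaps 6430548M08Rik on the same strand, so reads of these gene models cannot be told apart, whereas no annotated gene overlaps the other 3.

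**Figure D1:**
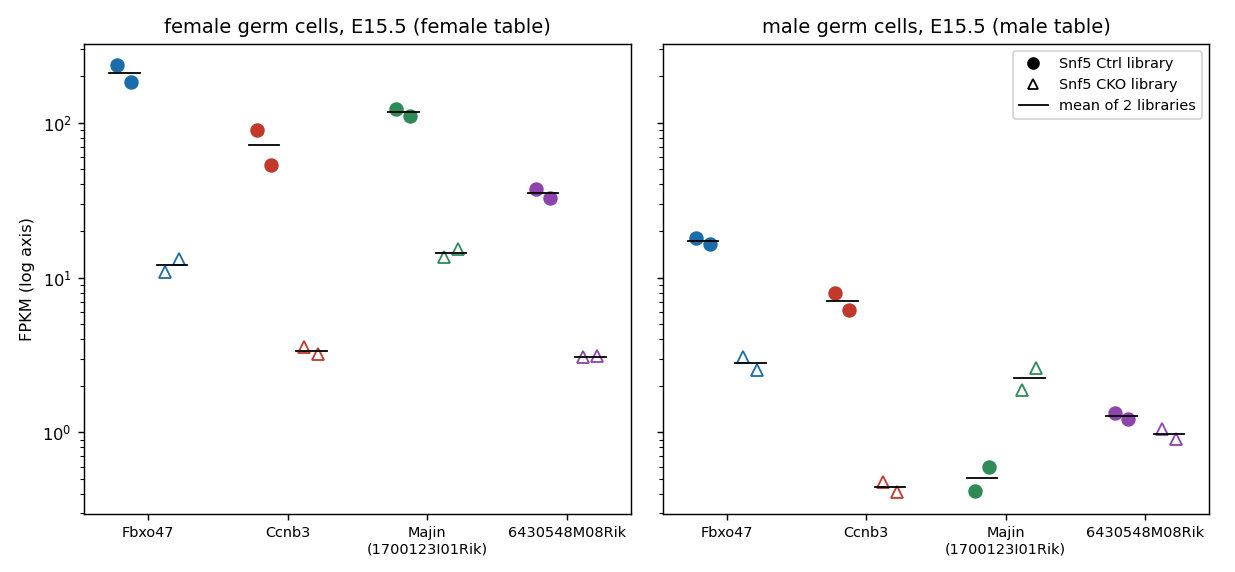
FPKM on a log axis of the 4 genes in each library, females left and males right (filled circles, Snf5 control; open triangles, Snf5 CKO; bars, means of 2 libraries). All female Snf5 CKO points lie below the controls, down to 3.06 FPKM for 6430548M08Rik, while in males Majin lies higher in Snf5 CKO (1.89 and 2.61 FPKM) than in controls.

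In males, the contrast that did not choose the genes, 2 of the 4 (Ccnb3 and Fbxo47) passed as lower, 1 (Majin) passed as higher and 1 (6430548M08Rik) did not pass. The male control mean of Majin and the male Snf5 CKO mean of Ccnb3 were below 1 FPKM. Each of these genes was thus tested in males only through its higher group. To be called, a locus had to differ by 1 or more on the log2 scale with an adjusted p under 0.05. Among all 12368 male loci, 17.5% were called lower and 14.3% higher, and the calls of 4 genes are read beside this background. The controls stood above both Snf5 CKO libraries for 3 of the 4 genes, against 39.9% of all male loci, and below them for 1, against 34.5%. In females, 21.8% of loci were called lower and 17.2% higher, with both Snf5 CKO libraries below the controls for 45.3% and above them for 36.2%. The female ranks of the 4 genes, 8, 9, 67 and 105 of 11642, follow from how they were chosen. With 2 libraries a group, the smallest p an exact two-sided permutation test allows for 1 gene is 0.333.

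**Figure D2:**
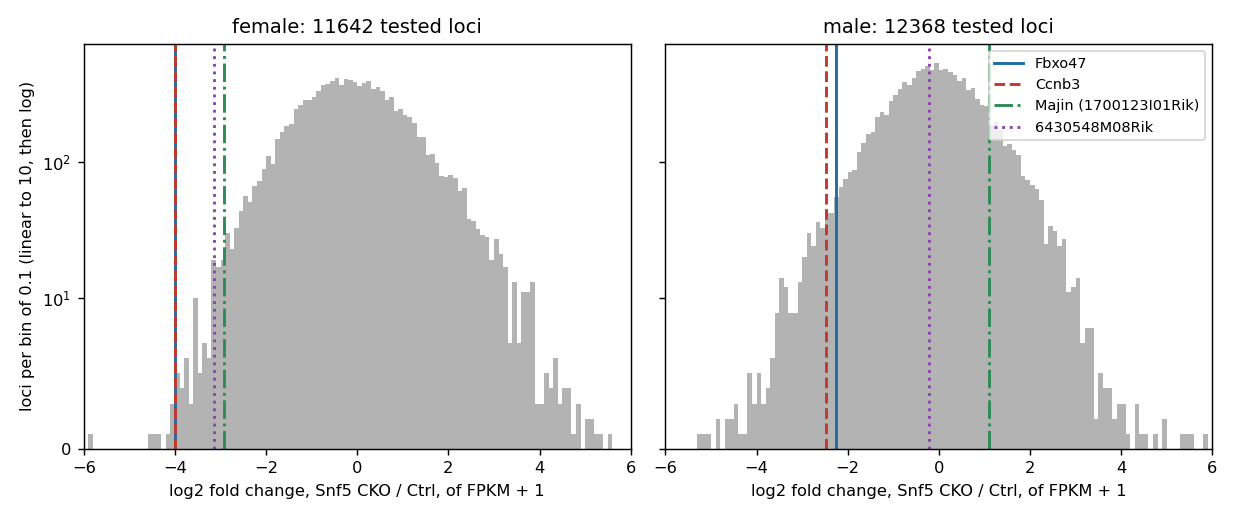
Number of tested loci per bin of 0.1 in log2 fold change of FPKM + 1 (grey; the vertical axis is linear to 10 and then log), with the 4 genes as vertical lines. The female lines lie between −4.01 and −2.93, and the male lines lie at −2.47, −2.26, −0.21 and 1.10.

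The replicate number was not part of the main fits. It was taken as a likely batch, although the labels do not say so in words, and the genes moved alike within each number. The log2 fold change within replicate 1 and within replicate 2 was −4.33 and −3.69 for Ccnb3 in females, and −4.32 and −3.70 for Fbxo47. For Majin it was −3.08 and −2.78 in females, and 1.03 and 1.17 in males. 6430548M08Rik had −3.25 and −3.03 in females, and −0.18 and −0.23 in males. Male Ccnb3 had −2.59 and −2.34, and male Fbxo47 had −2.22 and −2.29. Directions were thus the same within both replicate numbers for each gene and sex.

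The female and male tables were normalized separately, so levels across them are set side by side without a test. In controls the ratio of female to male mean FPKM was 229 for Majin, 27.3 for 6430548M08Rik, 12.2 for Fbxo47 and 10.2 for Ccnb3. In Snf5 CKO the same ratios were 6.4, 3.14, 4.28 and 7.61. Female Snf5 CKO germ cells, with 12 FPKM of Fbxo47 and 3.38 FPKM of Ccnb3, had values below those of male controls, at 17.2 and 7.03 FPKM. Female Snf5 CKO levels of Majin (14.4 FPKM) and 6430548M08Rik (3.09 FPKM) were above both male groups.

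Markers of somatic cells differed between the male groups in which Majin was higher. All 8 Sertoli cell markers (Sox9, Amh, Dhh, Cst9, Aard, Wt1, Gata4 and Inha) were called higher in male Snf5 CKO, and their summed level was 125 and 88.6 FPKM in controls against 525 and 721 FPKM in Snf5 CKO. Sox9, the defining Sertoli factor, was at 2.98 and 2.51 FPKM in male controls and 11.1 and 11.4 FPKM in male Snf5 CKO. The 5 Leydig cell markers went the other way, from 85.7 and 58.2 FPKM to 19.2 and 15.1 FPKM, with 3 called lower. The highest of them, Insl3, is 1 of these 3 and shares its locus with Jak3. That locus was at 35.9 and 32.7 FPKM in male controls and 10.3 and 10.1 FPKM in male Snf5 CKO. The summed stromal markers were at 18.5 and 10 FPKM in male controls and 4.04 and 2.62 FPKM in male Snf5 CKO. The part of these cells in the male values of the 4 genes was not tested. In females, the 8 Sertoli markers summed to 10.3 and 12.6 FPKM in controls and 20.3 and 19.2 FPKM in Snf5 CKO, with 1 of 8 called higher. The 7 pre-granulosa markers summed to 7.5 and 11.1 FPKM in female controls and 32 and 30.8 FPKM in female Snf5 CKO, with 4 called higher. No listed marker was at 0 in all libraries of both tables.

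Cyclins other than Ccnb3 moved in both directions in females. Of 25 tested, 6 (24%) were called lower and 10 (40%) higher, against 21.8% and 17.2% of all female loci, with a median log2 fold change of 0.45 against −0.14 over all loci. The other B-type cyclins, which drive entry into mitosis and meiosis with CDK1, rose in females: Ccnb1 from 12.7 to 249 FPKM (log2 fold change 4.20, limma, adjusted p = 0.00011) and Ccnb2 from 66.3 to 238 FPKM (1.83, adjusted p = 0.00031). The D-type cyclin Ccnd3 (2.75) and the A-type cyclin Ccna2 (2.24) were also called higher, while Ccne2, a cyclin of entry into S phase, fell by 2.51 on the log2 scale. In male germ cells, 4 of 25 cyclins (16%) were called lower and 8 (32%) higher, against 17.5% and 14.3% of all male loci, with a median of 0.16 against −0.07. Ccnb2 rose from 88.1 to 186 FPKM in males (1.07, adjusted p = 0.0077), and it lost its call without male control replicate 1 (adjusted p = 0.056) and without male control replicate 2 (adjusted p = 0.054). Ccnb1 was at 180 and 330 FPKM (0.87, adjusted p = 0.02), short of the fold required. Ccne1 (2.75), Ccnd1 (2.03) and Ccna2 (1.62) were called higher and Ccnjl (−2.53) lower in males. Among tested cyclins in males, Ccnjl and Ccnb3 had the lowest log2 fold changes.

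Genes that control CDK1 and the onset of anaphase, the step at which CCNB3 acts, were called higher for 10 of 23 (43.5%) and lower for 1 of 23 (4.35%) in females. Of all female loci, 17.2% were called higher and 21.8% lower. The list median was 0.95, against −0.14 over all loci. Cdk1, the kinase partner of B-type cyclins, rose from 15.9 to 52.3 FPKM in females (1.66, limma, adjusted p = 0.0006) and from 19.3 to 70.6 FPKM in males (1.82, adjusted p = 0.0027). Ube2c (3.02), an E2 enzyme of the anaphase-promoting complex, the mitotic kinase gene Plk1 (2.89) and the phosphatase gene Cdc25c (2.57) were called higher in females. Fbxo43, which encodes an inhibitor of the anaphase-promoting complex in meiosis, was the gene called lower in females, from 4.91 to 0.323 FPKM (−1.99, adjusted p = 0.0066). Its control libraries were far apart, at 7.59 and 2.22 FPKM, and on linear FPKM it was not called (adjusted p = 0.11). In males, 6 of 21 (28.6%) were called higher and 1 (4.76%), Pttg1 (securin), lower at −1.39 (limma, adjusted p = 0.031). Of all male loci, 14.3% were called higher and 17.5% lower. The male list median was 0.41, against −0.07 over all loci. Pttg1 lost its call without male control replicate 2 (−1.05) and without male Snf5 CKO replicate 1 (−1.03), both at an adjusted p of 0.11. Male Fbxo5, Plk1 and Wee1 were called higher, at 3.01, 2.34 and 1.77.

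Of 53 loci with an F-box gene symbol tested in females, Fbxo47 left out, 17 were called lower and 5 higher (median −0.43). One of them, Fbxl12os, carries the name of an opposite-strand transcript of Fbxl12 and is no F-box gene. Its locus in females (chr9:20605814-20617573) did not overlap that of Fbxl12 (chr9:20637749-20646789). Without it, 16 of 52 (30.8%) were called lower and 5 (9.62%) higher, against 21.8% and 17.2% of all female loci. The log2 fold changes reached from −1.99 (Fbxo43) to 2.52, and Fbxw7, the receptor for cyclin E, fell from 55.9 to 14.8 FPKM (−1.83, limma, adjusted p = 0.00056). Fbxo2 rose from 2.16 to 17.1 FPKM (2.52) and Fbxl12 from 3.99 to 20.4 FPKM, both called higher. In males, 10 of 55 (18.2%) were called lower and 6 (10.9%) higher, near the 17.5% and 14.3% of all male loci (median −0.32). Fbxo5, or Emi1, which inhibits the anaphase-promoting complex in the mitotic cycle, rose from 6.68 to 61 FPKM in males (3.01, adjusted p = 0.0022), whereas in females it was at 34.7 and 50.3 FPKM (0.52, adjusted p = 0.029) and was not called. Fbxo41 (−2.88), Fbxo16 (−2.31) and Fbxo40 (−2.24) were called lower in males, close to Fbxo47 at −2.26.

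Among genes of the SCF ligase core and its regulators, Cul1 had the lowest log2 fold change in females, −0.75. Without female Snf5 CKO replicate 1, Cul1 was at −1.02. Skp1a, the adaptor that binds the F-box, was at 981 and 626 FPKM in female control and Snf5 CKO (log2 fold change −0.65, limma, adjusted p = 0.07) and at 1098 and 667 FPKM in males (−0.72, adjusted p = 0.13). With all libraries, none of the 10 SCF genes reached −1 in either sex, whatever the p. Among all loci, 21.8% were called lower in females and 17.5% in males. Cks1b (2.72) and Skp2 (2.23), which together recognize CDK inhibitors, were called higher in females. Ube2m (1.77), Skp2 (1.24) and Cdc34 (1.02) were called higher in males. Genes called higher made up 20% of the list in females and 30% in males, against 17.2% and 14.3% of all loci. The list medians were 0.21 in females and 0.42 in males, against −0.14 and −0.07 over all loci. Male Cks1b (1.06, adjusted p = 0.055) was called with the replicate block (adjusted p = 8.3e-05) and without male Snf5 CKO replicate 1. Male Skp2 lost its call without male control replicate 2 (adjusted p = 0.058), and Cdc34 lost its call without male control replicate 1 (0.86) and without male Snf5 CKO replicate 2 (0.85).

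Among 14 other genes of telomeres and their attachment to the nuclear envelope, 7 were called lower in females (50%, against 21.8% of all loci) and, with all libraries, none reached a log2 fold change of 1 (median −0.96). Sun2 was called higher without female control replicate 1 (adjusted p = 0.027) and without female Snf5 CKO replicate 2 (1.12), and Tinf2 lost its call as lower in the latter case (−0.98). The genes of the proteins that MAJIN joins, Terb1 and Terb2, fell with it. Terb1, listed as Ccdc79, fell from 171 to 11.2 FPKM (−3.79, limma, adjusted p = 0.00011), and Terb2, listed as 4933406J08Rik, fell from 37.9 to 4.13 FPKM (−2.93, adjusted p = 0.00012). Spdya, which activates CDK2 at telomeres, fell from 243 to 19.2 FPKM (−3.60, adjusted p = 0.00011). Kash5, listed as Ccdc155, which links the envelope to dynein, fell from 36.1 to 8.18 FPKM (−2.02, adjusted p = 0.00025). In males 2 of 13 (15.4%) were called lower and 2 (15.4%) higher, near the 17.5% and 14.3% of all male loci (median 0.25). No rise was called for Terb1 or Terb2. Terb1 was at 0.984 and 0.911 FPKM in male control and Snf5 CKO, below the level tested, and Terb2 was at 0.939 and 1.39 FPKM (0.31, adjusted p = 0.34). Kash5 rose from 1.44 to 4.08 FPKM (1.05, adjusted p = 0.015) and Tinf2, a shelterin subunit, from 15.7 to 40.8 FPKM (1.33, adjusted p = 0.0046). Kash5 lost its call without male control replicate 2 (0.92) and without male Snf5 CKO replicate 2 (0.90). Sun2 (−1.63) and Pot1a (−1.26) were called lower in males, but Sun2 was not called on linear FPKM (limma, adjusted p = 0.079).

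**Figure D3:**
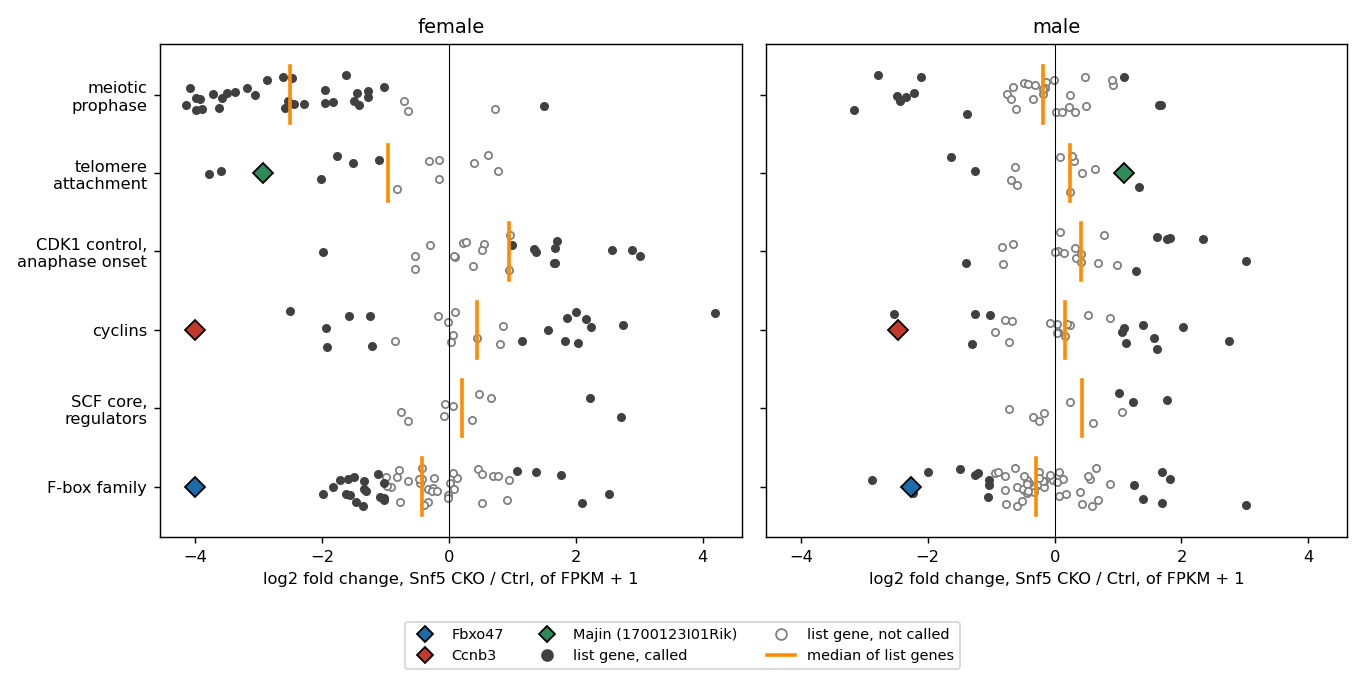
Log2 fold change of FPKM + 1 for each tested gene of 6 lists (small circles, filled where called) with the list median (orange bar), females left and males right, and Ccnb3, Fbxo47 and Majin as diamonds in their own lists. Female medians run from −2.50 for the meiotic prophase list to 0.95 for CDK1 control, the female places of the diamonds follow from how the genes were chosen, and Majin at 1.10 stands right of the telomere list median of 0.25 in males.

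Most known genes of meiotic prophase were called lower in females, and most were not called in males. Of 34 tested in females, 30 (88.2%) were called lower and 1 (2.94%) higher, and 3 were not called (median −2.50). Of all female loci, 21.8% were called lower and 17.2% higher. Spata22 (−4.14), Rad21l (−4.08), Mei1 (−3.99) and Prdm9 (−3.99), which act in recombination, cohesion and break formation, fell most. In males, 8 of 33 (24.2%) were called lower, 3 (9.09%) higher and 22 not called (median −0.19). Of all male loci, 17.5% were called lower and 14.3% higher. Tex15 (−3.17), Spata22 (−2.78), Sycp3 (−2.49) and Sycp2 (−2.43) were called lower in males, as Ccnb3 and Fbxo47 were. Syce2 rose from 68.6 to 221 FPKM (1.68, limma, adjusted p = 0.0082), Rec8 rose by 1.65 on the log2 scale (adjusted p = 0.0048), and Iho1, listed as Ccdc36, rose from 1.19 to 3.71 FPKM (1.10, adjusted p = 0.0078), as Majin did. With rescaling to a common sum, male Iho1 was at 0.98, short of the fold required. Rec8, a cohesin of meiosis, was the gene called higher in females too (from 37.3 to 104 FPKM, adjusted p = 0.0029). The lists were written with earlier results of these data known, so their counts are a description beside the shares of all loci.

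**Figure D4:**
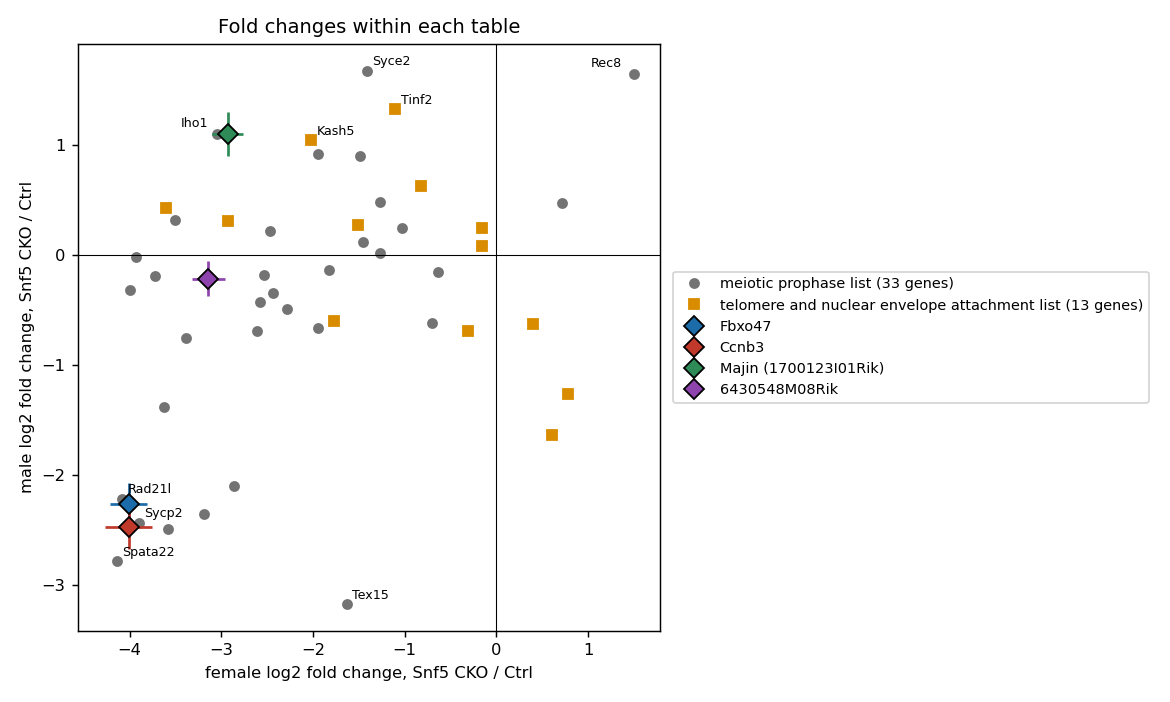
Log2 fold change of FPKM + 1 in females (horizontal) and in males (vertical) for genes of the meiotic prophase list (grey circles), the telomere list (orange squares) and the 4 genes (diamonds, with SE bars). Ccnb3 and Fbxo47 lie beside Sycp2, Rad21l and Spata22 at the lower left, Majin lies beside Iho1 at the upper left (−2.93 and 1.10), and 6430548M08Rik lies near 0 on the male axis.

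Likeness of pattern was measured as the Euclidean distance between profiles of log2(FPKM + 1), centred in each table, over 8 libraries and 11791 genes. Distances were 0.469 between Fbxo47 and Ccnb3 and 1.37 between Majin and 6430548M08Rik, and between 2.24 and 3.78 for the other pairs. Fbxo47 and Ccnb3, both called lower in males, were thus the closest pair. Majin and 6430548M08Rik, called higher and not called in males, were less close. The profiles include the female libraries that chose the 4 genes, and only genes with a female mean of at least 1 FPKM were compared. Closeness therefore follows in part from the choice. The 3 genes nearest to Fbxo47 were Aspa (0.394), Ccnb3 (0.469) and Sycp2 (0.529), and those nearest to Ccnb3 were Fbxo47, Aspa (0.551) and Spata22 (0.556). Aspa, which encodes aspartoacylase, was at 23.3 and 17.6 FPKM in female controls and 0.539 and 0.73 FPKM in female Snf5 CKO. Nearest to Majin were Ddb2 (0.418), a DNA damage recognition factor, Iho1 (0.429) and Calr3 (0.443), a testis calreticulin. Ddb2 had log2 fold changes of −2.53 in females and 1.17 in males, and Calr3 had −3.09 and 0.80. Nearest to 6430548M08Rik were Asb1 (0.245), Gm14023 (0.252) and Syt14 (0.272), with female log2 fold changes of −2.99, −3.04 and −3.14 and male values of −0.13, −0.03 and −0.40. Male levels ran from 0.119 to 0.308 FPKM for Gm14023 and from 0.918 to 1.44 FPKM for Asb1. At such levels the added 1 FPKM holds the male value near 0.

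Of the 16 expressed neighbours of the 4 loci in females, 7 were called higher, 1 lower and 8 not called, and of 16 in males 3 were called higher and 3 lower. Among all loci, 17.2% were called higher and 21.8% lower in females, and 14.3% and 17.5% in males. Single neighbours below are a description beside these shares. The neighbours of Fbxo47 on its lower-coordinate side, Lasp1 at 11.5 kb and B230217C12Rik at 7.17 kb, rose in females, by 2.27 (limma, adjusted p = 0.00019) and 1.27 (adjusted p = 0.0016). Beside Ccnb3, Clcn5, a chloride transporter gene 111 kb away, fell by 2.53 in females (adjusted p = 0.00019), 2010204K13Rik rose by 2.07 (adjusted p = 0.00027), and Shroom4 (−0.66) and Nudt10 (−0.25) were not called. Of 458 X-linked loci tested in females, 139 were called lower and 88 higher, against 21.8% and 17.2% of all female loci. The median was −0.31, against −0.14 over all loci. In males, 121 of 462 were called lower and 63 higher, against 17.5% and 14.3% of all male loci. The male median was −0.14, against −0.07 over all loci. Arl2, 43.2 kb from Majin, rose by 1.62 (adjusted p = 0.0019), and Gpha2, 2.18 kb from Majin, rose by 1.52 (adjusted p = 0.0055). Fam92b, 1.09 kb from 6430548M08Rik, rose by 1.12 (adjusted p = 0.0055), and Zdhhc7, 12.7 kb away, was at −0.99 (adjusted p = 0.0065), just short of the fold required. In males, Akap4, 25.8 kb from Ccnb3 and a sperm tail gene, fell by 1.72 (adjusted p = 0.0044), and Snx15 beside Majin rose by 1.69 (adjusted p = 0.0054).

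**Figure D5:**
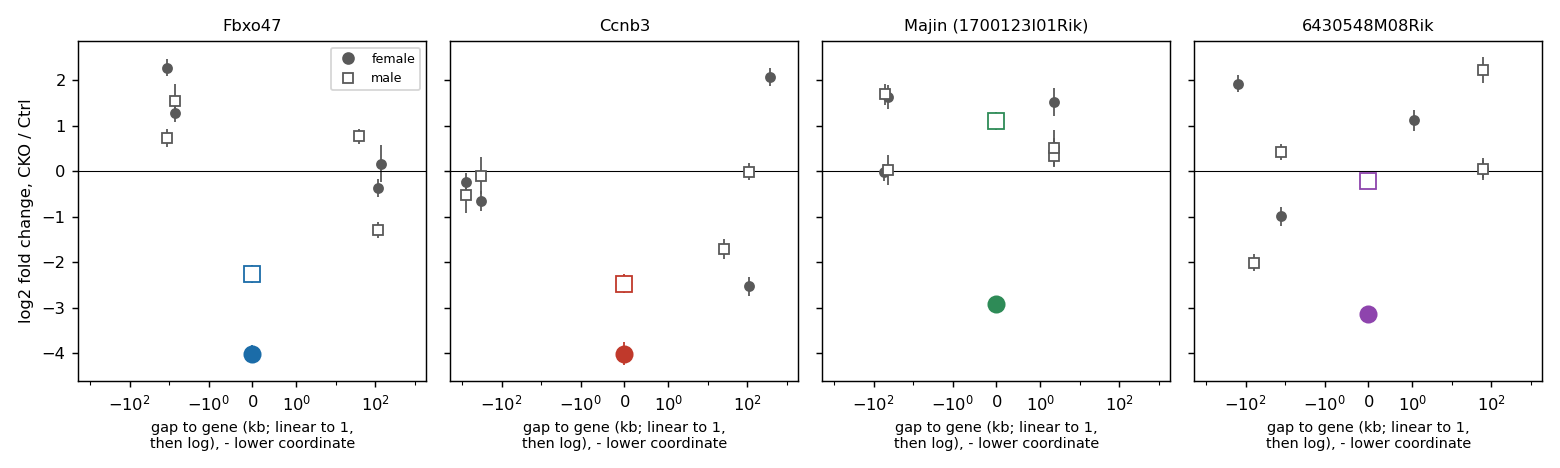
Log2 fold change of FPKM + 1 with SE bars for each of the 4 genes (large coloured points at 0) and for the nearest expressed neighbours by gap in kb (grey; linear to 1 kb, then log), with circles for females and squares for males. Near Fbxo47 at −4.01 in females, Lasp1 lies at 2.27, and near Majin at −2.93, Gpha2 lies at 1.52.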

How the data were processed

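RNA was amplified with a SMART-Seq kit and sequenced as paired ends. The authors used Tophat for mapping to UCSC mm10 and Cufflinks for quantification, and deposited FPKM values in 1 table per sex. The submitters' processing notes list TopHat2 2.2.1 and Cuffdiff 2.1.1, whereas the methods give other versions. The annotation and the library-size normalization are not given in the sources used here. The 16 confidence-bound columns were left out, and 1 was added to each table start.

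The sexes were fitted separately by limma 3.58.1 (R 4.3.3; lmFit, eBayes with trend) on log2(FPKM + 1), for named loci with a mean of at least 1 FPKM, and the script was tested on simulated data. Two-sided p-values were adjusted by Benjamini-Hochberg over all tested loci. Calls needed a change of 1 or more on the log2 scale, either way, with an adjusted p under 0.05. Libraries are biological duplicates. The replicate number was taken as a batch that pairs libraries: raw file names in the labels differ in style between numbers 1 and 2, and the deviations of same-numbered libraries from their group means correlated across genes at 0.504 (females) and 0.595 (males). The labels do not name a batch, and the main fits held no term for the replicate number. The members and lists were chosen with earlier results of these data known. Up to 4 called genes of the largest change were named per list and sex, with relatives of the members, nearest patterns and neighbours. Wherever several loci carried a name, the one of highest mean FPKM was shown. Exons and overlaps come from GENCODE on GRCm38. Alternatives were another pseudocount, other filters, rescaling, no trend, linear FPKM, a replicate block, each library left out and, chosen after seeing the data, 1 locus per gene name. Plots used Python 3.11.15 and matplotlib 3.10.9.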

Additional observations from a re-analysis of the deposited data

Results flagged for a closer look

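1700123I01Rik (Majin) had a log2 fold change of −2.93 in female and 1.10 in male germ cells, Snf5 CKO against control. The groups did not overlap in either sex: the Snf5 CKO libraries were the lower ones in females and the higher ones in males. The difference between the sexes was not tested, because the gene was chosen on the female contrast, and its male control level was 0.509 FPKM. Majin reached the tested mean of 1 FPKM in males only through its Snf5 CKO libraries.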

How the results depend on the processing

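Of 205 values of the 4 genes, of all loci and of the lists pooled under an alternative, 200 kept their direction and call, or stayed within the spread allowed. Of 312 counts for single lists, 20 moved by over 1.5 times. With median-of-ratios rescaling, the female log2 fold change of Majin was −2.76 and that of 6430548M08Rik −2.99; the latter was −3.46 with a pseudocount of 0.1, which also moved male Majin from 1.10 to 1.95 and male Ccnb3 from −2.47 to −3.70 with their calls kept. The male value of Majin was 0.94 (limma, adjusted p = 0.017) without male Snf5 CKO replicate 2. Male loci called lower numbered 1353 under a filter at a mean of 5 FPKM, where fewer loci were tested and Ccnb3, Majin and 6430548M08Rik had no male value. With each library left out, female values ran from −4.19 to −3.83 for Fbxo47, −4.38 to −3.63 for Ccnb3, −3.01 to −2.86 for Majin and −3.24 to −3.04 for 6430548M08Rik, and male values from −2.36 to −2.16, −2.63 to −2.31, 0.94 to 1.26 and −0.26 to −0.15. Such fits leave a lone library that is assumed to vary like the other group.

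The replicate block, which pairs libraries of 1 number, changed no call of the 4 genes and added male Cks1b to the SCF genes called higher, 4 against 3: male adjusted p was 7.4e-05 for Fbxo47, 0.00013 for Ccnb3, 0.002 for Majin and 0.28 for 6430548M08Rik. Median-of-ratios rescaling moved the median of all loci from −0.14 to 0.02 in females and from −0.07 to 0.07 in males; a common sum moved it to −0.24 in males, where 2447 loci were then lower and 1307 higher, against 2160 and 1772. Under it, 5 male cyclins and 1 SCF gene were called higher. With median-of-ratios rescaling, 5 male meiotic prophase genes were called higher, against 3. With the filter at 5 FPKM, 11 female and 6 male F-box genes were called lower. The causes were not tested. With unknown depth and 2 libraries a group, no counting error is given.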
